A study of Homo sapiens with 4 samples.

Results

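MicroRNAs that mark muscle, liver, nervous tissue, blood, endothelium, stroma, pluripotent cells and pancreas were examined in 4 human oesophageal squamous cell carcinoma lines. The set held 37 of the 856 features of the array, chosen by name from a list of tissue markers, with identifiers absent from the array skipped. Values were not the rule of choice, but the lists were chosen with earlier results of these data known. The list named miR-1, miR-133a/b, miR-206, miR-208a and miR-499 for muscle, miR-122 for liver, and miR-124, miR-9, miR-9*, miR-129-5p and miR-137 for nervous tissue. It named both arms of miR-142, miR-223, miR-150, miR-144, miR-451 and miR-486-5p for blood, and miR-126 with miR-126* for endothelium. For stroma it named miR-143, miR-145, miR-199a/b and miR-214, for stem cells miR-302a-d, miR-367 and miR-371 to miR-373, and for pancreas miR-216a and miR-217. The deposited table identifies features only by miRBase mature-sequence accession, and no table used here pairs accession with name. Each accession was given the name at its place in the list, and that pairing was not checked against another source. Where the list joins several microRNAs (miR-126/miR-126*, miR-142-3p/5p, miR-133a/b, miR-199a/b, miR-302a-d, miR-371 to miR-373), the features are given by accession under the joint name.

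The lines, KYSE-450 and KYSE-520 with KYSE-890 and KYSE-960, are established cultures of carcinoma of the squamous epithelium lining the gullet, each on 1 array. Where 4 values of a feature follow one another below, they run by ascending line number, with KYSE-450 first and KYSE-960 last. The highest or lowest line of a feature is that of the deposited values. The array median was highest in KYSE-520, and for some features the highest or lowest line changes once arrays are scaled. The lines were untreated as far as the labels say, and all had been kept at 37 °C and 5% CO2 with 5% fetal bovine serum, a medium supplement of animal origin. From each line 500 ng of total RNA, labelled with the dye Hy5, was hybridized for 16 h at 32 °C. Since no line was measured again on a second array, differences between lines come without replicate error and without a test. No array of muscle, liver, brain, blood or another tissue that has these microRNAs was part of the series, so the response of each feature to its own target was not measured. The carcinoma label itself was not checked against epithelial microRNAs, because those accessions could not be named.

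A microRNA is a short RNA that pairs with messenger RNAs and lowers their translation and stability. Its target choice rests mainly on the seed, bases 2 to 8 counted from the 5′ end. Many microRNAs are made by 1 cell lineage and are used as its markers: miR-122 is a major microRNA of hepatocytes, miR-142 and miR-223 of blood cells, miR-1 and miR-133 of striated muscle, and the miR-302/miR-367 and miR-371 to miR-373 clusters of pluripotent cells. Squamous carcinoma cells grown without other cell types lack the blood, vessel and stromal cells that bring such markers into tumour tissue.

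Of the 37 names, 32 were matched to a mature sequence from the RefSeq table (GRCh38.p14), with 25 different seeds. The matching did not cover all chromosomes, so an unmatched name may still have a sequence. That gap does not account for every unmatched name, since the hairpin of unmatched miR-451 lies on chromosome 17, which was covered. The sequences below belong to the microRNAs on which the results turn: the only members with a feature above background, and miR-9 with miR-9*, of which miR-9* came next closest to the threshold. Capitals mark the seed.
miR-129-5p: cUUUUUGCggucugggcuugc
miR-126-3p: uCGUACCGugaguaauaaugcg
miR-126-5p (miR-126*): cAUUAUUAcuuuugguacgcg
miR-9-5p (miR-9): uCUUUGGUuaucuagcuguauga
miR-9-3p (miR-9*): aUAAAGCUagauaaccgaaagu

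RefSeq places MIR126 on chromosome 9 at chr9:136670602-136670686, within the gene EGFL7, which encodes a protein secreted by endothelial cells. The miR-129-5p sequence comes from MIR129-2 at chr11:43581394-43581483, inside the span of HSD17B12. Another hairpin, MIR129-1, lies at chr7:128207872-128207943 within LOC124901744, and the array does not tell the hairpins apart. Hairpins of miR-9 lie on chromosomes 1, 5 and 15, each within a long non-coding RNA gene named for it, and give the same pair of mature sequences. Shared seeds joined 10 of the 32 microRNAs into 3 groups, which hold 6 of the 8 stem cell and 4 of the 6 muscle members and are shown to mark which features target overlapping sets of messenger RNAs.
miR-302a-3p: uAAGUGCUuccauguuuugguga
miR-302b-3p: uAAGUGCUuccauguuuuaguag
miR-302c-3p: uAAGUGCUuccauguuucagugg
miR-302d-3p: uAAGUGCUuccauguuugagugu
miR-372-3p: aAAGUGCUgcgacauuugagcgu
miR-373-3p: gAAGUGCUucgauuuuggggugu
miR-1-3p: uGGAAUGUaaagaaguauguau
miR-206: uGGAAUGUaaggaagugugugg
miR-133a-3p: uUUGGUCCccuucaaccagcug
miR-133b: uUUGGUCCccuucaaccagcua

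Nearly all of these tissue microRNAs were at background in all 4 lines. A feature was called above background on an array when its deposited intensity, in linear scanner units, exceeded the median of all features by 3 SD, the SD being the root mean square distance to the median of the features below it. This threshold lay at 134.5 for KYSE-450, 146.2 for KYSE-520, 128.3 for KYSE-890 and 129.7 for KYSE-960. By this rule 2 of the 37 members were above background on at least 1 array, against 168 of all 856 features (19.6%). No member was so on all 4 arrays, where 75 features were (8.76%).

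The 2 members were above background in KYSE-450, where 13.8% of all features passed. KYSE-520, which had the most features above background (17.5%), had 0 members among them. KYSE-890 and KYSE-960 likewise had 0 members, beside 11.1% and 11.0% of all features. Of the 148 values of the members over the 4 arrays, 2 were above background. The members' share lay below the share of all features on each array. That is a description of 37 features chosen together, with no test, and a feature at background sets no limit on copies per cell.

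**Figure D1:**
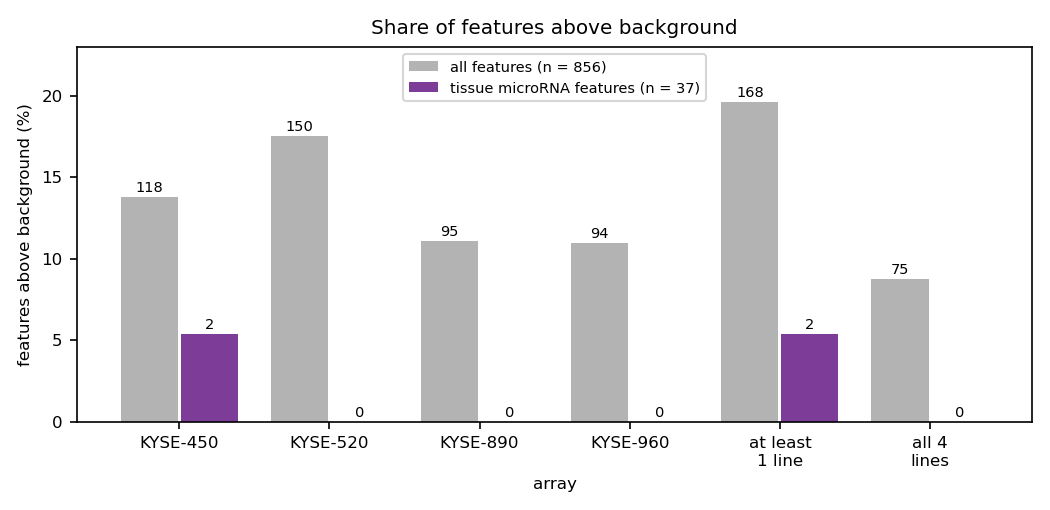
Bars give the share of features above background (percent) on each array, on at least 1 and on all 4, for all 856 features (grey) and the 37 tissue microRNA features (purple), with counts above the bars. The purple bars stand at 2 features in KYSE-450 and in at least 1 line, and at 0 in the other 3 lines.

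The members were spread around the middle of each array's distribution. Their median intensities were 74.0, 84.5, 77.0 and 80.0, beside medians over all features of 78.8, 85.5, 80.5 and 77.5. In both KYSE-450 and KYSE-520, 15 of the 37 lay above the array median, in KYSE-890 14 did and in KYSE-960 20 did. The brightest member of each array measured 200, 143, 117 and 116.5. Summed over all members, intensity was between 2934.5 in KYSE-960 and 3144.5 in KYSE-520, with no member but the 2 in KYSE-450 contributing a value above background.

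**Figure D2:**
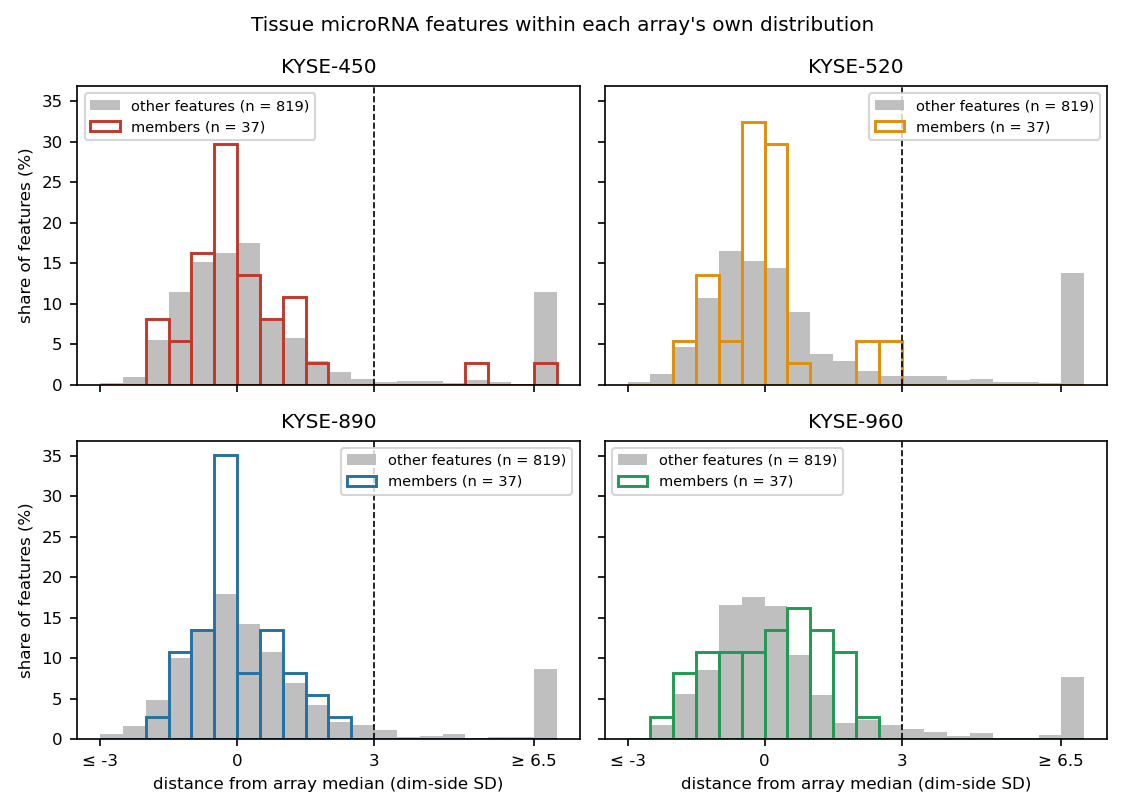
Each panel shows 1 array, with the distance of a feature from the array median in dim-side SDs on the horizontal axis and the share of features (percent) on the vertical axis, for the 819 other features (grey) and the 37 members (outlined). The dashed line is the background threshold of 3 SD, the last bin holds everything at 6.5 SD or more, and members lie beyond the line in KYSE-450 alone.

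Endothelium was represented by miR-126 and miR-126*, the paired arms of the EGFL7 hairpin, printed above. Feature MIMAT0000445, 1 of these arms, read 200 for KYSE-450, 143 for KYSE-520, 101.5 for KYSE-890 and 87.5 for KYSE-960. It was above background in KYSE-450, just under the threshold of 146.2 in KYSE-520, and at background in KYSE-890 and KYSE-960. The other arm, MIMAT0000444, measured 76.0, 85.5, 65.5 and 94.5 and was at background throughout. Its highest value was in KYSE-960, the line in which MIMAT0000445 was lowest.

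MIMAT0000445 in KYSE-450 and KYSE-960 was also the only member that differed by at least 2-fold between a pair of lines. For this count the arrays were quantile-normalized, values under an array's median were raised to it, and the brighter line had to be above background. The ratio of KYSE-450 to KYSE-960 was 2.04 after normalization and 2.29 in the deposited values. Since the feature was not above background in KYSE-960, the deposited values put KYSE-450 at least 1.53-fold higher, taken against the dimmest feature above background there, and normalized values gave no such bound. The deposited bounds against KYSE-520 and KYSE-890 were at least 1.36-fold and at least 1.54-fold, and after normalization the bound was 1.62-fold against KYSE-520 and was lost against KYSE-890. Counted over all features, 117 of 856 (13.7%) differed in at least 1 of the 6 pairs. The call ended when the medians of shared bright features were set equal, when the dimmest feature above background served as floor, and when 16 was added to each value.

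Of the neural microRNAs, miR-129-5p (MIMAT0000242), a brain-enriched microRNA, was the other member above background. It read 177 for KYSE-450, 127.5 for KYSE-520, 117 for KYSE-890 and 99.5 for KYSE-960. KYSE-450 passed its threshold and the other 3 lines did not, although all 4 values exceeded their array medians. With a single threshold after quantile normalization it passed in KYSE-890 too, and with thresholds at 2 SD it passed in KYSE-520 and KYSE-890, so the restriction to KYSE-450 depended on the threshold. The deposited values put KYSE-450 at least 1.20-fold above KYSE-520, at least 1.37-fold above KYSE-890 and at least 1.35-fold above KYSE-960. These are lower bounds within the deposited values only and set no upper limit on the differences. The normalized ratio was 1.61 to KYSE-520, 1.15 to KYSE-890 and 1.615 to KYSE-960. The bound of 1.37-fold against KYSE-890 thus did not hold on the normalized scale. After normalization such a bound was left against KYSE-520 alone. Ranked from the brightest, the feature stood at 101 of 856 in KYSE-450 and at 113 in KYSE-890, and at 171 in KYSE-520 and 173 in KYSE-960.

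miR-9 and miR-9*, opposite arms of hairpins active in neural progenitors, were both highest in KYSE-520 and at background by the 3 SD rule. miR-9* (MIMAT0000442) read 74.0 for KYSE-450, 143 for KYSE-520, 59.0 for KYSE-890 and 52.5 for KYSE-960. miR-9 (MIMAT0000441) read 126 for KYSE-520, 61.0 for KYSE-890 and 72.5 for KYSE-960, and in KYSE-450 it lay 1.01 SD above the array median. Both arms had KYSE-890 and KYSE-960 as the lowest lines. miR-9* lay 3.23 units under the threshold in KYSE-520 and had the widest span of all members in the deposited values, 2.72-fold, with no value above background and so no fold between lines.

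The remaining neural members were dim. miR-124 (MIMAT0000422), the most abundant microRNA of many neurons, measured 52.0, 63.5, 57.5 and 43.5 and was under the array median on each. miR-137 (MIMAT0000429), a regulator of neuronal differentiation, measured 49.0, 93.0, 69.5 and 53.5 and was highest in KYSE-520. It too was at background in all 4 lines.

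**Figure D3:**
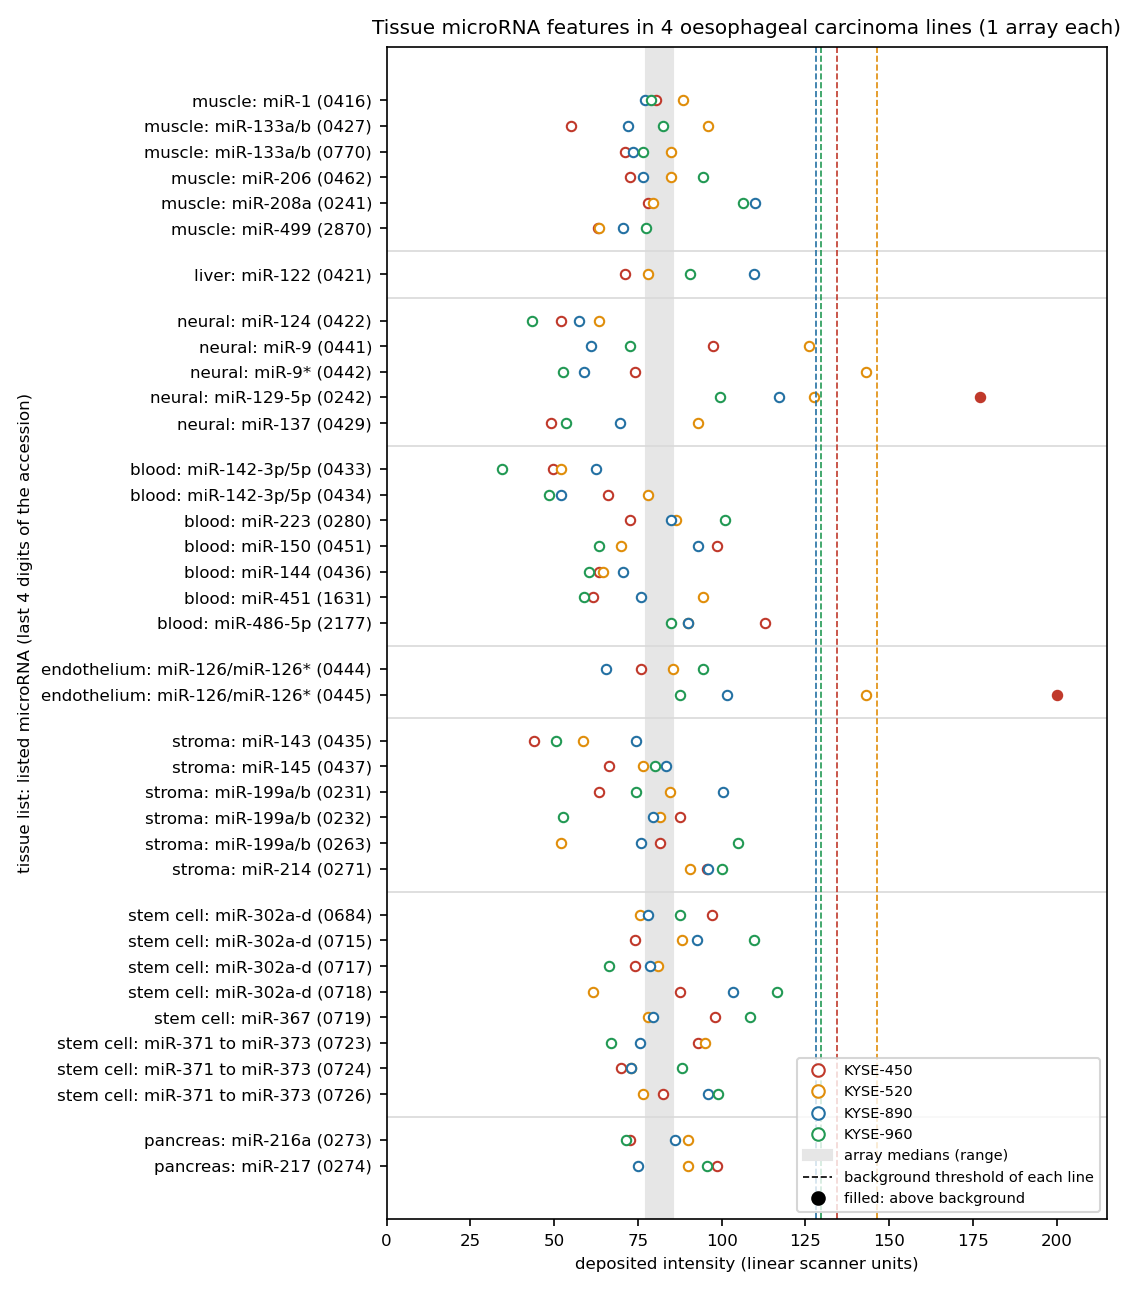
Each row is 1 of the 37 members, grouped by tissue list, and each point its deposited intensity (linear scanner units) in 1 line, with open points at background and filled points above it. Dashed lines mark each line's threshold (128.3 to 146.2) and the grey band the array medians (77.5 to 85.5), and the filled points are MIMAT0000445 at 200 and miR-129-5p at 177, both in KYSE-450.

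None of the 6 muscle features was above background, and their 24 values ran from 55.0 to 110. miR-1 (MIMAT0000416), which promotes muscle differentiation, measured 80.5, 88.5, 77.0 and 79.0, and miR-206 (MIMAT0000462), a skeletal muscle microRNA with the same seed, 72.5, 85.0, 76.5 and 94.5. These mature sequences differ at 4 positions. miR-1 was highest in KYSE-520 and miR-206 in KYSE-960.

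The miR-133 features, whose mature sequences differ at 1 position, measured 55.0, 96.0, 72.0 and 82.5 (MIMAT0000427) and 71.0, 85.0, 73.5 and 76.5 (MIMAT0000770). Both had their top value in KYSE-520 and their bottom value in KYSE-450. miR-208a (MIMAT0000241), made from an intron of a cardiac myosin gene, measured 78.0, 79.5, 110 and 106.5, the highest values of the muscle list, in KYSE-890 and KYSE-960. miR-499 (MIMAT0002870), likewise made from a myosin gene, measured 63.0, 63.5, 70.5 and 77.5. The liver microRNA miR-122 (MIMAT0000421) measured 71.0, 78.0, 109.5 and 90.5, at background in each line and highest in KYSE-890.

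None of the 7 blood features was above background, with 28 values between 34.5 and 113. The 2 arms of miR-142, which most blood cell lineages carry, measured 49.5, 52.0, 62.5 and 34.5 (MIMAT0000433) and 66.0, 78.0, 52.0 and 48.5 (MIMAT0000434), all under their array medians. miR-223 (MIMAT0000280), a microRNA of granulocytes and monocytes, measured 72.5, 86.5, 85.0 and 101. miR-223 was highest in KYSE-960, and the miR-142 features in KYSE-890 and KYSE-520.

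miR-150 (MIMAT0000451), made by mature lymphocytes, measured 98.5, 70.0, 93.0 and 63.5, with KYSE-450 and KYSE-890 above their array medians. The red cell microRNAs miR-144 (MIMAT0000436) and miR-451 (MIMAT0001631) come from neighbouring hairpins within 250 bases of chromosome 17, and miR-451 matures through Argonaute instead of Dicer. miR-144 measured 63.5, 64.5, 70.5 and 60.5, and miR-451 61.5, 94.5, 76.0 and 59.0. miR-144 was highest in KYSE-890 and miR-451 in KYSE-520, both at background. miR-486-5p (MIMAT0002177), abundant in red cells and muscle, measured 113, 90, 90 and 85.0, above the array median on all 4 arrays and above the background threshold on none.

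None of the 6 stromal features was above background, and their 24 values ran from 44.0 to 105. miR-143 (MIMAT0000435) and miR-145 (MIMAT0000437), smooth muscle and fibroblast microRNAs whose hairpins lie within 1816 bases at chr5:149428918-149430733, measured 44.0, 58.5, 74.5 and 50.5, and 66.5, 76.5, 83.5 and 80.0. Both had KYSE-890 as the brightest and KYSE-450 as the dimmest line. The miR-199a/b features, known from mesenchymal cells, measured 63.5, 84.5, 100.5 and 74.5 (MIMAT0000231), 87.5, 81.5, 79.5 and 52.5 (MIMAT0000232), and 81.5, 52.0, 76.0 and 105 (MIMAT0000263). These 3 had 3 different highest lines. miR-214 (MIMAT0000271), which is encoded near a miR-199a hairpin on chromosome 1, measured 95.5, 90.5, 96.0 and 100 and spanned 1.10-fold, the narrowest of all members in the deposited values though not after normalization.

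None of the 8 stem cell features was above background, with 32 values from 61.5 to 116.5. The miR-302 features share their first 17 of 23 bases as well as the seed, and their hairpins lie with that of miR-367 within 684 bases at chr4:112647874-112648557. They measured 97.0, 75.5, 78.0 and 87.5 (MIMAT0000684), 74.0, 88.0, 92.5 and 109.5 (MIMAT0000715), and 74.0, 81.0, 78.5 and 66.5 (MIMAT0000717). Their highest lines were KYSE-450, KYSE-960 and KYSE-520 in turn, although in SDs from the array median MIMAT0000717 was highest in KYSE-890. The last of the 4, MIMAT0000718, measured 87.5, 61.5, 103.5 and 116.5, and its value in KYSE-960 was the brightest of any member in that line, 13.2 units under the threshold.

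miR-367 (MIMAT0000719), from the same transcript but with another seed, measured 98, 78.0, 79.5 and 108.5, and was likewise highest in KYSE-960. The miR-371 to miR-373 features, from hairpins within 1099 bases of chromosome 19, measured 93.0, 95, 75.5 and 67.0 (MIMAT0000723), 70.0, 73.0, 73.0 and 88.0 (MIMAT0000724), and 82.5, 76.5, 96.0 and 99.0 (MIMAT0000726). MIMAT0000724 and MIMAT0000726 were highest in KYSE-960 and MIMAT0000723 in KYSE-520, although in SDs from the array median MIMAT0000723 was highest in KYSE-450. No feature of either pluripotency cluster passed the 3 SD threshold in any line. With thresholds at 2 SD, and with a single threshold after quantile normalization, MIMAT0000718 of the miR-302 features passed in KYSE-960.

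The pancreatic microRNAs miR-216a (MIMAT0000273) and miR-217 (MIMAT0000274), markers of acinar cells encoded within 6093 bases of chromosome 2, were at background as well. miR-216a measured 72.5, 90, 86.0 and 71.5, and miR-217 98.5, 90, 75 and 95.5. In the deposited values the 2 had different highest lines, KYSE-520 and KYSE-450. Measured in SDs from the array median, miR-216a was highest in KYSE-890 instead.

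No member stood at least 2-fold above or below all 3 other lines, beside 35 of 856 features (4.09%). In the deposited values the highest line was KYSE-520 for 12 members, KYSE-960 for 11, and KYSE-450 and KYSE-890 for 7 each, and over the features at background throughout it was KYSE-520 for 37.4%, KYSE-890 for 27.2%, KYSE-960 for 18.3% and KYSE-450 for 17.2%. Measured as distance from the array median in dim-side SDs, the order of lines changed, with 11 members highest in KYSE-960, 9 each in KYSE-520 and KYSE-890, and 8 in KYSE-450. The members' spans between lines, highest over lowest, had a median of 1.44, and the 688 features at background on all 4 arrays had a median span of 1.5. Only 4 members, MIMAT0000445, miR-129-5p, miR-486-5p and miR-214, exceeded the array median on all 4 arrays (21.0% of all features did), and 7 lay below it on all 4 (16.7% of all features).

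The order of the members was partly kept between arrays. Over the 35 members at background throughout, Spearman's rho was 0.58 for KYSE-890 with KYSE-960, 0.49 for KYSE-450 with KYSE-960 and 0.41 for KYSE-450 with KYSE-890. It was 0.20 for KYSE-450, -0.05 for KYSE-890 and 0.01 for KYSE-960 when each was paired with KYSE-520. Over the 653 other features at background throughout, rho lay between 0.20 and 0.31 in all 6 pairs. The points of each correlation are features that share 2 arrays. For 17 members with a single name and a RefSeq sequence, rho between GC content and mean intensity was 0.33, and it was 0.20 over the 16 of them at background throughout.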

How the data were processed

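The values are 1 intensity per feature and array, deposited by the authors as a table of 856 features in 4 lines. Per the labels' protocols, RNA was labelled with Hy5 and the chip was read on a ProScanArray scanner. Background subtraction, replicate spots and scaling were not given in the sources used here. Values were all multiples of 0.5 and none was 0 or negative, with the lowest at 27.5. Precision is limited by the number of arrays, 1 per line.

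The members and lists were chosen with earlier results of these data known. Values were used as deposited for levels and background calls. Ratios between lines used quantile normalization (limma 3.58.1, R 4.3.3) over all features. The calling rules were tried on simulated arrays whose added signals were all brighter than any member here, so calls near the threshold were not covered. Every member was named, with full ratios for those above background, and the 2 members nearest to each threshold were examined. Planned lists of epithelial markers, related arms and other features with a member's seed could not be matched to accessions and were not used. Sequences and positions come from RefSeq (GRCh38.p14), matched by name. Alternatives were other thresholds, scalings, floors, a 4-fold limit and an added 16.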

Additional observations from a re-analysis of the deposited data

How the results depend on the processing

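Counts of members above background moved mainly with the threshold. At 2 SD over the median, 5 members passed on at least 1 array (26.6% of all features), adding miR-9, miR-9* and MIMAT0000718 of the miR-302a-d features. By line, 4 passed for KYSE-520 (20.7% of all features), 1 for KYSE-890 (14.8%) and 1 for KYSE-960 (15.0%). With 1 threshold after quantile normalization, 1 passed for KYSE-890 and 1 for KYSE-960, and MIMAT0000718 joined the other members above background. That made 3 members on at least 1 array, beside 22.3% of all features. At 5 SD, with an SD from the median absolute deviation and with a percentile threshold, the same 2 members passed on at least 1 array. Of all features, 16.0%, 17.5% and 18.3% passed under these settings in turn. Leaving out each line in turn, an alternative chosen after seeing the data, gave 0 to 2 members above background on at least 1 array, with 0 without KYSE-450. Each threshold came from its own array, so this outcome was fixed by the main calls and says nothing on their stability. A threshold from the other features only, also added later, gave 2. Members that differed by 2-fold numbered 0 with shared medians set equal (12.9% of all features) and with 16 added (12.9%). They also numbered 0 with the dimmest feature above background as floor (10.5% of all features). At 4-fold the count was 0 too, where 5.96% of all features differed. Of 59 alternative values, 48 stayed within 1.5 times the main value and 0 reversed. Many of the 48 were counts that stayed at 0, some of which could not change, and a count cannot reverse. The tally is therefore a weak measure of stability. Under all alternatives run, leaving out lines included, 0 members stood apart in a line. Over the other scalings, floors and fold limits, 0.35% to 5.37% of all features did, so a count of 0 says little about the members. No paired analysis was possible because no line had more than 1 array. Background signal left in the values limits what dim features can show, and a member at background is not shown to be absent.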
